A study of Drosophila melanogaster with 4 samples.

Results

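The 41 genes described here encode proteins of the Drosophila melanogaster testis and sperm, or are named as male-specific transcripts (Mst genes), and were measured in fly heads with and without overexpression of lamin B. They were chosen by symbol, and each had at least 1 read in the deposited comparison. They are 41 of 17753 genes in that comparison, of which 15282 had a read. Another 4 genes named by the same symbols, all Mst77Y copies, had no read. Poly-A RNA was sequenced from pooled heads at day 30 of adult life, from flies kept 20 to a vial. The 2 lamin-B overexpression samples had the genotype Hsp70-Gal4/+; +/UAS-LamB.GFP, in which the heat shock promoter of Hsp70 drives Gal4 and Gal4 drives a GFP-tagged lamin B. The 2 control siblings were +/+; +/UAS-LamB.GFP, so both groups carried the transgene and only the overexpression group carried the driver. No group carried the driver alone, so effects of the driver and of the lamin B transgene cannot be told apart. The labels give neither the sex of the flies nor whether the samples of a group were separate cultures. What the p-values measure is thus the variation among these samples alone, and it may be technical.

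Male germ cells of the fly pass through a long spermatocyte stage in which most genes of sperm formation are transcribed, and many of those transcripts are stored and translated only after meiosis, in the spermatids. Transcription in spermatocytes depends on the meiotic arrest genes, which encode testis versions of TATA-box-binding protein associated factors (TAFs) and the members of an aly-containing complex. Spermatids then replace their histones by protamine-like proteins, build a very long flagellum with a testis tubulin, and extend fused mitochondria along it. None of these cells belongs to the head.

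For Lam, the targeted gene, which encodes lamin B, the authors' deposited table gave a rise of 1.04 on the log2 scale (SE 0.0801, adjusted p = 6.76e-36). Its direction fits the labels. The files give each gene's mean over the 4 libraries and not the libraries themselves. Whole reads per library were recovered from that mean for 10414 of 10472 genes with a mean of at most 1000, and for all 41 genes described here. Overexpression libraries A and B, as they are called here, had size factors of 1.10 and 1.15, against 0.73 and 1.09 for control libraries A and B. For libraries of like composition these would correspond to about 37.0 M, 38.4 M, 24.5 M and 36.5 M reads (M for mega). The recovered libraries carry no replicate number, and reads divided by the size factor are called normalized reads below. Overexpression library A stood apart from library B in the reads of these genes, as given with the results. Intervals are exact 95% intervals from the binomial distribution, and they cover counting error only.

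Transcripts of late sperm formation were higher in the overexpression heads, whereas those of the meiotic arrest regulators were near the control level in sum, a sum in which mia and achi held most of the reads. The authors' deposited table called 10 of the 34 genes with an adjusted p higher (adjusted p under 0.05, Benjamini-Hochberg over 11757 genes), against 5.66% of all genes tested. It called 0 lower, against 3.07% of all genes tested, and 0 had an unadjusted p under 0.05 in that direction, while 20 of 41 did so upwards. Over the 15282 genes with a p-value, 5.76% had such a p downwards and 9.68% upwards. Both overexpression libraries lay above both controls for 30 of the 41 genes, against 31.7% of all genes with recovered reads, and below them for 0, against 14.2%. A difference of at least 4-fold between groups that did not overlap was found for 26 of 41, against 15.0% of all genes, a threshold chosen after the values were seen. Of those 26, 16 were not called by the authors' test. For the 10 called genes the ratio of reads stayed at 5.63 or above with 1 library left out, from Mst77F (5.63 to 23.1) to Mst98Cb (85.5 to 665). Without overexpression library A the count of 4-fold genes was again 26, and without each other library in turn it was 25 to 28, while the share of all genes ranged from 11.9% to 19.1%.

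Summed over the 41 genes, overexpression libraries A and B held 18432 and 5978 reads and the controls 1306 and 1764. The ratio of normalized reads was 6.43 (interval 6.19 to 6.68), and it was 3.09 without overexpression library A and 9.89 without library B. A two-sided exact permutation test of the summed normalized reads gave p = 0.333, the smallest that 2 samples against 2 allow. With so few samples the authors' test and limma, which pool information over all genes, are the only tests here that can pass a threshold. In these bulk samples, more cells of a type and more RNA per cell cannot be told apart.

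**Figure D1:**
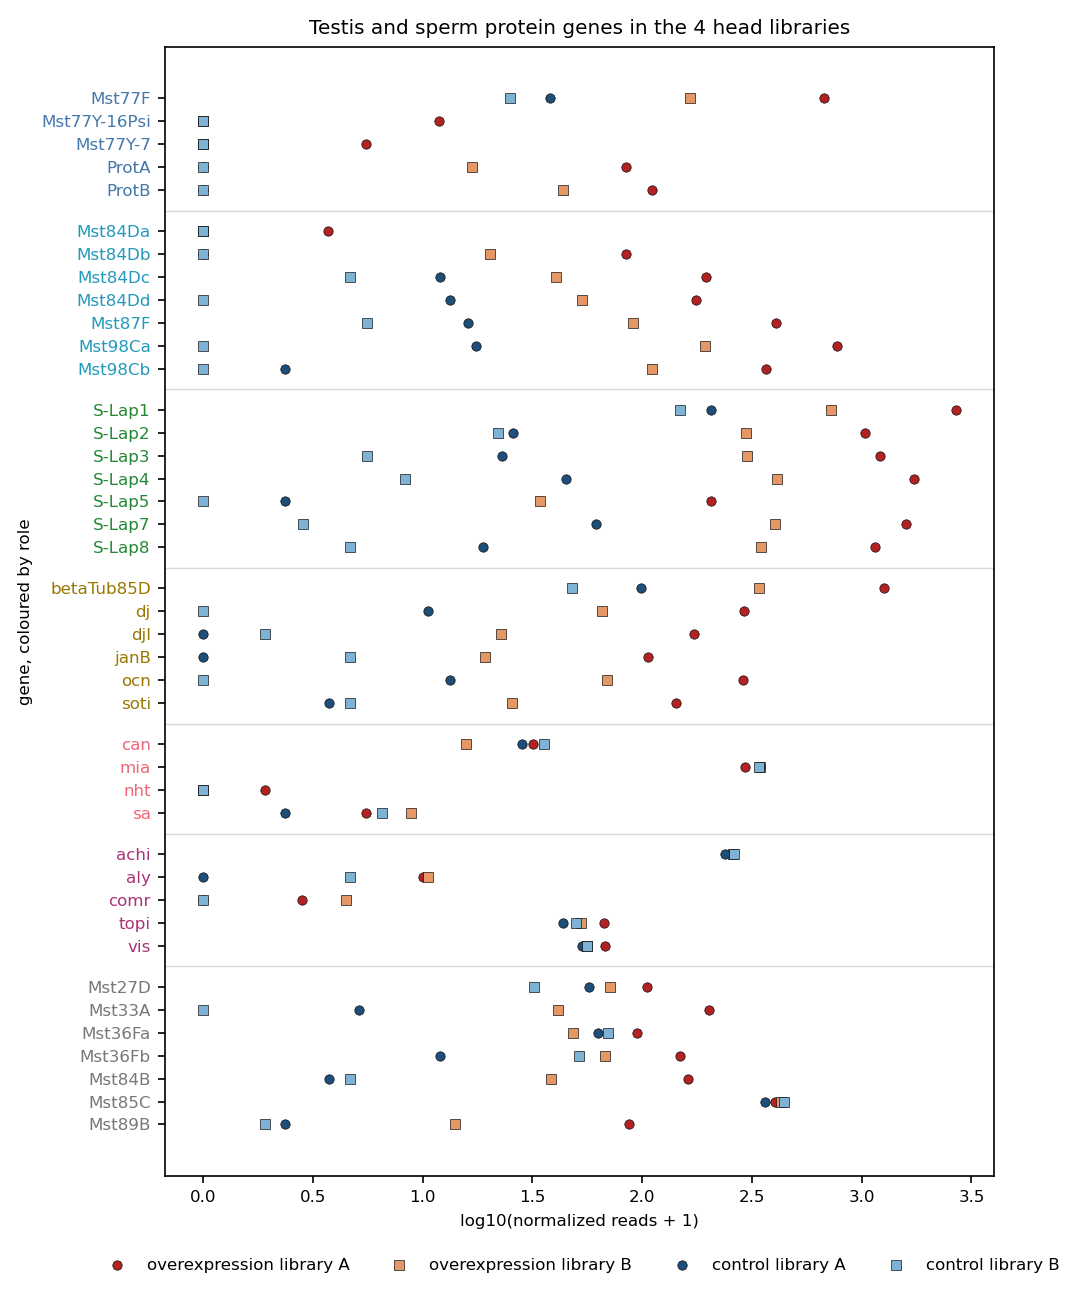
Normalized reads of each of the 41 genes in the 4 libraries, on a log10(normalized reads + 1) scale, with genes grouped and coloured by role. Most sperm chromatin, tail, aminopeptidase and other spermatid genes had overexpression library A (red circles) to the right, library B (orange squares) between and both controls (blue) to the left. For the sparse Mst77Y-16Psi, Mst77Y-7 and Mst84Da, library B was at 0 with both controls. The 4 libraries lay close together for mia, achi, vis and topi, and the sparse aly, comr and sa were spread.

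The sperm chromatin genes include ProtA and ProtB, which encode the protamine-like proteins that package the sperm genome, and Mst77F, a linker-histone-like protein that condenses with them. ProtA had 92 and 18 reads in overexpression libraries A and B and 0 in both controls. ProtB had 121 and 49 reads in the overexpression libraries and 0 in both controls. Every ProtA and ProtB read thus came from an overexpression library, with library A the higher. Set against a floor of 3 reads over the 2 controls, ProtA was at least 29.6-fold and ProtB at least 45.8-fold higher. Without overexpression library A these limits were 9.53 and 25.9, and without library B 50.5 and 66.4. Without control library A they were 17.8 and 27.4, and without control library B 11.9 and 18.4. ProtB rose in the authors' deposited table (log2 fold change 0.38, SE 0.103, adjusted p = 0.00582), and ProtA did not pass there (0.20, SE 0.079, adjusted p = 0.101). The genes are near-identical neighbours 448 bp apart on chromosome 2L (ProtA 14879050 to 14881652, ProtB 14882101 to 14883721, both on the minus strand, 3 exon blocks each), so the split of reads between them is uncertain.

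Mst77F had 743 and 188 reads in overexpression libraries A and B and 27 and 26 reads in the controls. Both controls held reads of this gene, and both overexpression libraries lay above them. Its ratio of normalized reads was 14.2 (10.8 to 19.1), and the authors' deposited table gave a rise of 0.61 on the log2 scale (SE 0.131, adjusted p = 1.35e-04). The ratio was 5.63 without overexpression library A and 23.1 without library B. Mst77F lies on chromosome 3L at 20816901 to 20818027. Its Y-linked copies were seen in overexpression library A alone. Mst77Y-16Psi, a pseudogene copy annotated on an unplaced scaffold, had 12 reads and Mst77Y-7, on the Y chromosome, had 5, with 0 in the other libraries. These copies resemble Mst77F closely, so reads may be split among them. Summed over the 5 chromatin genes the ratio was 18.7 (14.2 to 25.2).

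The 7 genes of the Cys-Gly-Pro family, named for a repeated motif of cysteine, glycine and proline, encode small proteins of the sperm tail whose messages are held untranslated until late in spermatid development. Of the 6 with an adjusted p, 3 rose in the authors' deposited table. Mst98Cb had 404 and 126 reads in overexpression libraries A and B and 1 and 0 reads in the controls. This is 1 control read in all, and the ratio of 428 has an interval of 76.6 to 16956. Its log2 fold change in the authors' deposited table was 0.63 (SE 0.124, adjusted p = 2.0e-05). Mst87F had 447 and 103 reads in the overexpression libraries against 11 and 5, a ratio of 27.8 (17 to 49), and the authors' deposited table gave a rise of 0.45 on the log2 scale (SE 0.114, adjusted p = 0.00232). Mst84Dc had 215 and 45 reads against 8 and 4, or a ratio of 17.5 (9.86 to 34.3), and the authors' deposited table gave a rise of 0.31 on the log2 scale (SE 0.102, adjusted p = 0.0286). In each of the 3 the groups did not overlap, and library A held more reads than library B. Without overexpression libraries A and B in turn the ratio was 200 and 665 for Mst98Cb, 10.2 and 46 for Mst87F, and 5.96 and 29.5 for Mst84Dc. Without control libraries A and B in turn it was 85.5 and 172 for Mst98Cb, 53.3 and 16.2 for Mst87F, and 31.5 and 10.5 for Mst84Dc.

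None of the other 4 Cys-Gly-Pro genes was called. Mst98Ca, which lies 141 bp from Mst98Cb on chromosome 3R (Mst98Ca 28291338 to 28292656, Mst98Cb 28292798 to 28293863), had 849 and 220 reads in the overexpression libraries against 12 and 0. Its ratio was 72 (41.1 to 140), yet the authors' deposited table gave it 0.05 (SE 0.0406, adjusted p = 0.645). The neighbours therefore differed in call, with the same order of the 4 libraries in both and the control reads in control library A alone. Mst84Dd had 193 and 60 reads against 9 and 0, or a ratio of 22.7 (11.8 to 50.3), with an adjusted p of 0.65 in the authors' deposited table. Mst84Db had 92 and 22 reads against 0 and 0, at least 30.7-fold higher, with an adjusted p of 0.0734 in the authors' deposited table. Mst84Da had 3 reads, all in overexpression library A. The Mst84D genes stand in a row on chromosome 3R, from Mst84Dd at 7363307 to the end of Mst84Da at 7366262, with gaps of 480, 486 and 222 bp. Summed over the family, the ratio was 44.9 (34 to 60.7), 18.3 without overexpression library A and 72.6 without library B. Without control library A it was 150, and without control library B it was 22.

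The sperm leucyl aminopeptidases (S-Lap) are among the most abundant proteins of fly sperm and are part of the material that fills the mitochondrial derivatives of the tail. They held 10633 and 2876 reads in overexpression libraries A and B and 273 and 202 reads in the controls, more than any other role. In all 7 S-Lap genes both overexpression libraries exceeded both controls, and 2 of 7, S-Lap2 and S-Lap5, were called higher in the authors' deposited table. S-Lap1 had the most reads, 2982 and 833 against 149 and 160. It also had the highest level per length, 808 normalized reads per kb of exon in the overexpression mean and 82.8 in the control mean. Its ratio was 9.98 (8.89 to 11.2), and its adjusted p in the authors' deposited table, 0.0523, missed the threshold (log2 fold change 0.29, SE 0.102).

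S-Lap2 lies 413 bp from S-Lap1 on chromosome 3L (S-Lap1 8617235 to 8619474, S-Lap2 8619888 to 8622091). It had 1145 and 338 reads against 18 and 23, or a ratio of 29.2 (21.5 to 40.9), and the authors' deposited table gave a rise of 0.36 on the log2 scale (SE 0.105, adjusted p = 0.0101). S-Lap5 had 226 and 38 reads against 1 and 0. Its ratio of 213 (38 to 8462) rests on 1 control read, and the authors' deposited table gave a rise of 0.31 on the log2 scale (SE 0.0959, adjusted p = 0.0194). The controls were thus close to each other for S-Lap2 and nearly empty for S-Lap5. Without overexpression libraries A and B in turn the ratio was 13.1 and 46 for S-Lap2 and 60.4 and 372 for S-Lap5, and without control libraries A and B in turn that of S-Lap5 was 42.6 and 85.6.

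For the remaining 4 aminopeptidase genes control library A held more reads than control library B. S-Lap3 had 1332 and 342 reads against 16 and 5, or a ratio of 64.4 (42 to 104). S-Lap4 had 1910 and 472 against 32 and 8, a ratio of 48.1 (35.2 to 67.6), and S-Lap8 had 1275 and 395 against 13 and 4, a ratio of 79.4 (49.5 to 137). The gap between the controls was widest for S-Lap7, with 1763 and 458 reads against 44 and 2, a ratio of 39 (29.2 to 53.5) that was 15.8 to 538 when 1 library at a time was left out. In the authors' deposited table their adjusted p was 0.14, 0.204, 0.103 and 0.476 for S-Lap3, S-Lap4, S-Lap8 and S-Lap7. Per kb of exon, the overexpression means of S-Lap4 (516 normalized reads per kb), S-Lap7 (470) and S-Lap8 (365) followed that of S-Lap1. The SD between the 2 overexpression libraries was nearly as large as each mean, as for S-Lap4 (normalized reads 1071 ± 931, SD, n = 2). All these genes were higher in library A than in library B, so this SD is not the error of a comparison between genes. The order was not tested.

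Of the 6 other named spermatid genes, djl and soti rose in the authors' deposited table, and in all 6 the overexpression libraries both exceeded both controls. betaTub85D, the testis beta-tubulin of the axoneme and the meiotic spindle, had 1396 and 391 reads in overexpression libraries A and B and 71 and 51 reads in the controls. Its ratio was 11.8 (9.85 to 14.3), with an adjusted p of 0.0806 in the authors' deposited table. It had reads in both controls, with 97.3 and 46.8 normalized reads, and both overexpression libraries, at 1264 and 341, lay above them. The ratio was 5.09 and 18.8 without overexpression libraries A and B in turn, and 17 and 8.16 without control libraries A and B. dj (don juan), which encodes a protein of the sperm nucleus and tail, had 321 and 74 reads against 7 and 0, or a ratio of 45.6 (21.9 to 114), and no call by the authors' deposited table (adjusted p = 0.607). Its neighbour djl (don juan like), 242 bp away, had 189 and 25 reads against 0 and 1. The ratio of 173 (30.7 to 6865) rests on 1 control read, and for djl the authors' deposited table gave a rise of 0.26 on the log2 scale (SE 0.0888, adjusted p = 0.044). In this pair the gene with fewer reads was the one called. The ratio of djl was 39.7 and 311 without overexpression libraries A and B in turn, and 104 and 23.1 without control libraries A and B.

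soti (scotti), which encodes an inhibitor of the ubiquitin ligase that acts when spermatids are separated from one another, had 157 and 28 reads against 2 and 4. Its ratio was 24.9 (11.2 to 68.8), and the authors' deposited table gave a rise of 0.29 on the log2 scale (SE 0.0957, adjusted p = 0.0374). The ratio of soti was 7.41 without overexpression library A and 43.1 without library B. ocn (ocnus) and janB (janus B) are testis-expressed relatives of janA that lie 253 bp apart on chromosome 3R. ocn had 316 and 78 reads against 9 and 0 (ratio 35.4, 18.5 to 78), and janB had 116 and 21 against 0 and 4 (ratio 27.7, 10.6 to 103). Their adjusted p-values in the authors' deposited table were 0.641 and 0.106. janB shares exon bases with janA, which is widely expressed and had 731 and 731 reads in the overexpression libraries against 501 and 690. The authors' deposited table put janA at -0.02 (adjusted p = 0.981), so the partner did not have the pattern of janB.

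**Figure D2:**
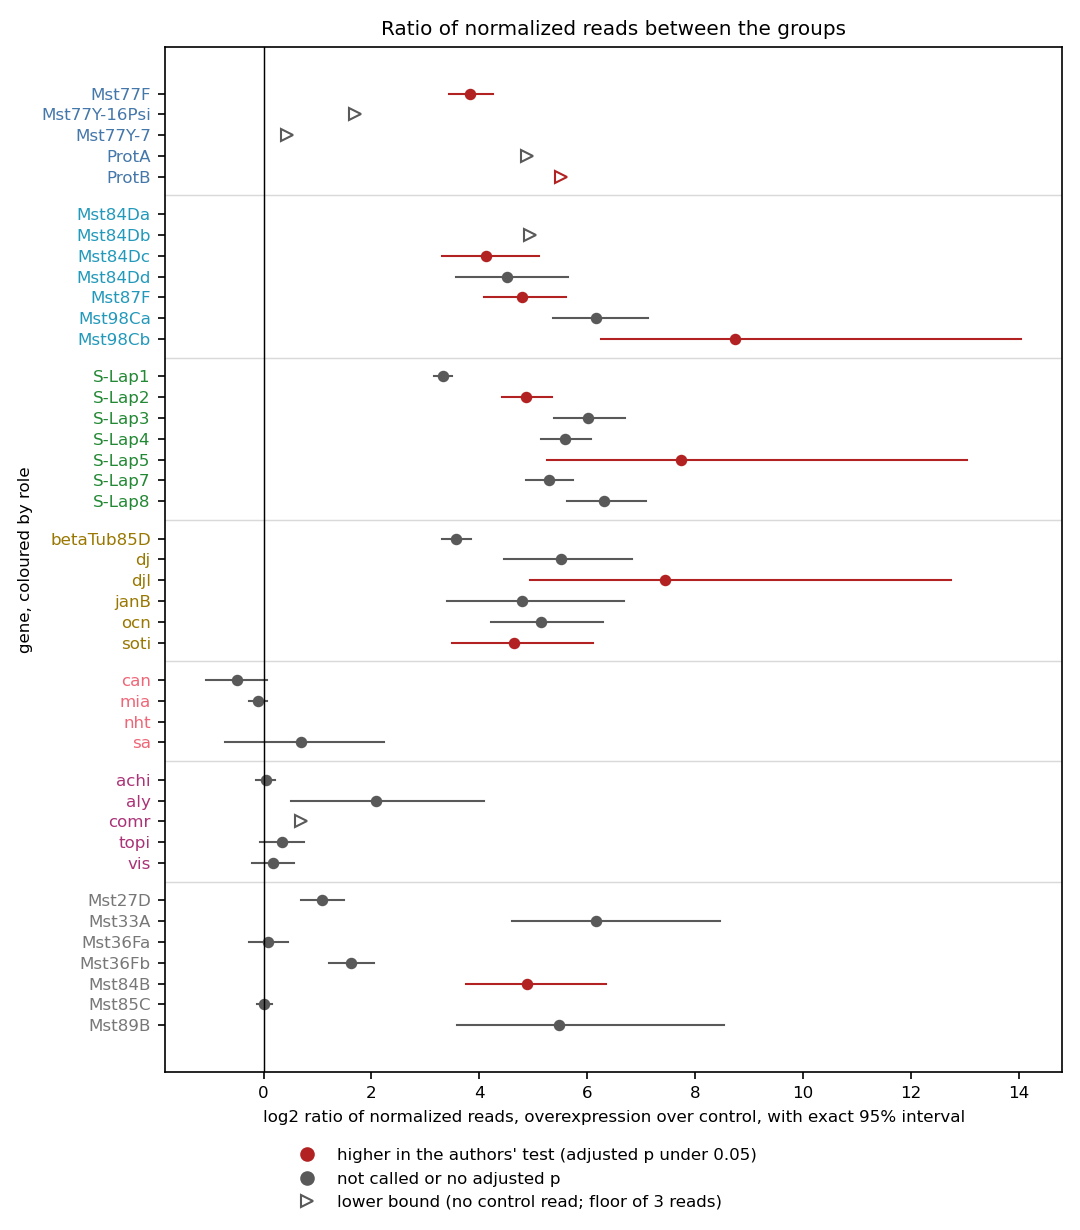
Ratio of normalized reads, overexpression over control, for each gene on a log2 scale with its exact 95% interval (counting error only), and in red where the authors' deposited table called the gene higher. Open triangles are lower bounds for genes without a control read, and Mst84Da and nht, with 3 reads or fewer, have no ratio; called and uncalled spermatid genes had overlapping ranges of ratio, and the intervals of mia, achi, vis, topi and Mst85C include 0.

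The meiotic arrest regulators were split between genes near the control level and genes with few reads. The testis TAF homologs are can (a TAF5 homolog), mia (TAF6), sa (TAF8) and nht (TAF4), and 0 of the 2 with an adjusted p were called. In 0 of the 4 did both overexpression libraries exceed both controls. mia had 322 and 392 reads in overexpression libraries A and B and 250 and 372 reads in the controls, a ratio of 0.928 (0.832 to 1.04). Its normalized reads were 292 and 342 against 343 and 341, so the groups overlapped. can had 34 and 17 reads against 20 and 38, or a ratio of 0.711 (0.478 to 1.05), and sa had 5 and 9 against 1 and 6, a ratio of 1.62 (0.611 to 4.73). For can and sa the groups overlapped too, and nht had 1 read in all. Summed over the 4 genes, the ratio was 0.918 (0.827 to 1.02).

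The aly group encodes DNA-binding and scaffold subunits of the spermatocyte complex. Of its 3 genes with an adjusted p, 0 were called. In 3 of its 5 genes, aly, comr and topi, both overexpression libraries lay above both controls, against 31.7% of all genes. achi and vis, tandem homeobox genes that are near-identical duplicates 918 bp apart, had 286 and 295 reads against 173 and 284, and 74 and 63 against 38 and 60. Their ratios were 1.03 (0.908 to 1.16) and 1.13 (0.866 to 1.48), and the division of reads between them is uncertain. topi, a zinc finger gene, had 73 and 59 reads against 31 and 53, or a ratio of 1.27 (0.959 to 1.69). For achi and vis the groups overlapped, whereas topi had 66.1 and 51.5 normalized reads in the overexpression libraries against 42.5 and 48.7 in the controls.

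aly and comr were sparse. aly (always early) had 10 and 11 reads against 0 and 4, or a ratio of 4.24 (1.43 to 17), which makes it the single gene of the regulators among the 26 with at least 4-fold separated groups. It was 2.54 without control library A and 2.27 without control library B. comr had 2 and 4 reads against 0 and 0, at least 1.62-fold higher. Neither had an adjusted p in the authors' deposited table. For both, library B held at least as many reads as library A. Summed over the aly group the ratio was 1.1 (0.995 to 1.22).

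The Mst genes known by map position were mixed, with 1 of 7 called higher in the authors' deposited table, against 5.66% of all genes tested. Mst84B lies 255 bp from djl. It had 177 and 43 reads against 2 and 4, or a ratio of 29.6 (13.4 to 81.7), and the authors' deposited table gave a rise of 0.36 on the log2 scale (SE 0.105, adjusted p = 0.0104). Its ratio was 11.4 without overexpression library A and 48.6 without library B. Mst33A had 221 and 46 reads against 3 and 0 (ratio 72, 24.4 to 351), and Mst89B had 95 and 15 against 1 and 1 (ratio 44.5, 12 to 372). The authors' deposited table did not call Mst33A (adjusted p = 0.455) or Mst89B (adjusted p = 0.0983). These 3 had the pattern of the spermatid genes.

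Of the other 4, Mst27D and Mst36Fb had both overexpression libraries above both controls, at ratios below 4. For Mst85C and Mst36Fa the groups overlapped. Mst85C had 445 and 489 reads against 263 and 481 (ratio 1.01, 0.921 to 1.12), and Mst36Fa had 104 and 54 against 45 and 75 (ratio 1.06, 0.834 to 1.36). Mst27D had 115 and 81 reads against 41 and 34, or a ratio of 2.11 (1.61 to 2.8; adjusted p = 0.344 in the authors' deposited table). Mst36Fb, 88 bp from Mst36Fa, had 164 and 76 reads against 8 and 55, or a ratio of 3.08 (2.32 to 4.13) that was 1.92 without overexpression library A and 9.73 without control library B. Mst85C had the highest control level per length of all 41 genes, 274 normalized reads per kb of exon, followed by mia at 132. However, Mst85C shares exon bases with Nmdmc (mean normalized count 1794), and Mst27D with Mnn1 (6129). Some reads of Mst85C and Mst27D may therefore belong to these more abundant partners.

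Exon bases shared with another gene touch 8 of the 41 genes, and 5 of the 26 with at least 4-fold separated groups. The strand setting of the counting is not given in the sources used here, so reads of such pairs may be shared. In the authors' deposited table the partners were CG1105 for Mst84B at 0.02, GAPsec for S-Lap2 at 0.05, Mat89Ba for Mst89B at 0.03 and janA for janB at -0.02. lncRNA:CR43300, the partner of Mst87F, had 2 and 5 reads against 4 and 0. None of these 5 partners was called. By position, 18 of the 41 genes lie on chromosome arm 3R, 8 on 3L, 7 on 2L and 6 on 2R, and 0 on X, which holds 15.5% of the 15180 placed genes with reads.

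The reads and the deposited fold changes ranked these genes differently. The median log2 fold change over the 34 tested genes was 0.20 in the authors' deposited table, where changes are shrunken towards 0, against 0.01 over all genes tested. On the scale of log2(normalized reads + 1) the median of the 41 was 3.85. The dispersion of the authors' fit is the variance between libraries beyond counting, relative to the squared mean, that their SE implies. It was 0.179 to 0.517 for the 10 called genes. For the genes that were at least 4-fold higher and not called it was 0.383 to 2.97. Of the 25 such genes with an adjusted p, called or not, 6 had a dispersion above 1, and 0 of those 6 were called. These were Mst98Ca (2.97), ocn (2.72), Mst84Dd (2.59), dj (2.52), S-Lap7 (1.74) and Mst33A (1.73). All 6 had 3 or more reads in control library A and 2 or fewer in control library B.

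limma on log2(normalized reads + 1) was planned with every gene that had a read as the main fit. That fit called 6 of the 41 genes higher and 0 lower (adjusted p under 0.05, Benjamini-Hochberg), against 2.74% of all genes higher. An alternative fit over the 8392 genes with at least 10 reads called 23 of 37 fitted genes higher and 0 lower, against 9.32% of all fitted genes higher. The limma values that follow are from this alternative unless the main fit is named. The 23 included all 7 S-Lap genes, with S-Lap2 at 4.54 (adjusted p = 0.00141), S-Lap8 at 6.08 (adjusted p = 0.0017) and S-Lap3 at 5.73 (adjusted p = 0.00266) by limma on the log2 scale. They included the 6 fitted Cys-Gly-Pro genes, among them Mst98Ca at 6.53 (adjusted p = 0.0113 by limma), and dj at 5.41 (adjusted p = 0.0223 by limma). They also included ProtA at 5.23 (adjusted p = 0.022 by limma) and betaTub85D at 3.26 (adjusted p = 0.00749 by limma). janB, Mst89B and Mst36Fb missed, with adjusted p of 0.051, 0.055 and 0.115 by limma. None of the 7 fitted TAF and aly group genes was called by limma. This count depended on the fit. In the main fit Mst98Ca, dj, ProtA and betaTub85D missed, with adjusted p of 0.0666, 0.0862, 0.0695 and 0.0563 by limma. With voom weights limma called 0 over the genes with at least 10 reads, against 0.0596%. Without overexpression library A it called 3 of 37, against 6.84% of all fitted genes, which is near that background, and without library B 5, against 7.45%. Without control library A it called 16, against 3.78%, and without control library B 2, against 1.11%.

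**Figure D3:**
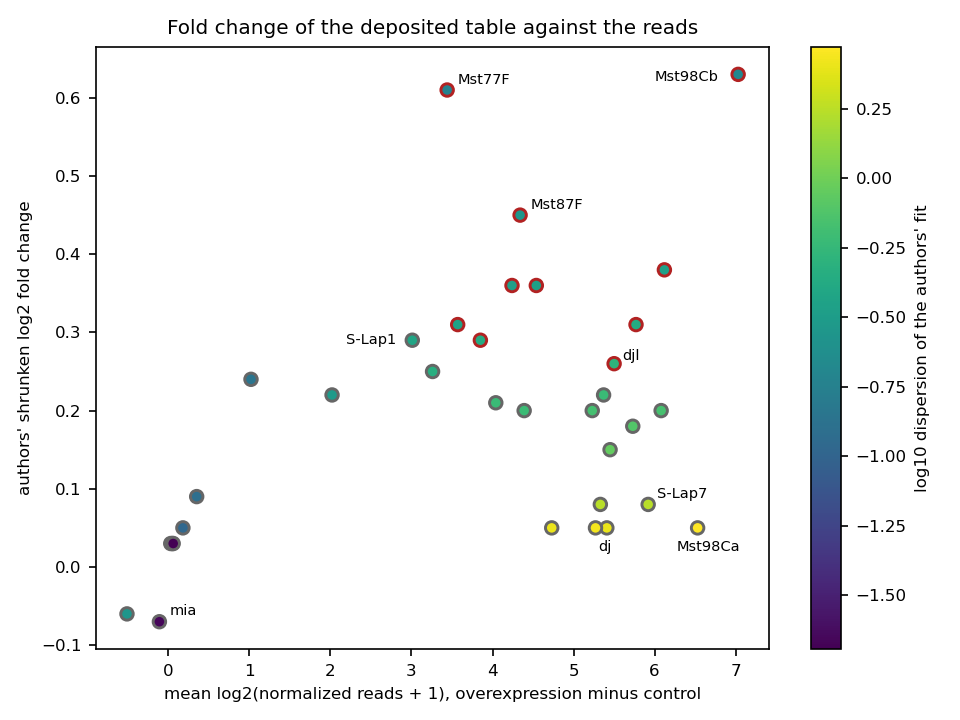
The authors' shrunken log2 fold change (vertical) against the difference between the groups in mean log2(normalized reads + 1) (horizontal) for the 34 genes with an adjusted p, coloured by the log10 dispersion of the authors' fit and ringed in red where their table called the gene. Genes of high dispersion, such as Mst98Ca, dj and S-Lap7, lie at 0.05 to 0.08 on the vertical axis although their reads differ as much as those of called genes.

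The overexpression libraries differed from each other in these genes. Over all 41, library A held 3.2 times the normalized reads of library B (3.1 to 3.29), against 1.08 over all genes with recovered reads. Library A was above library B in 25 of the 26 genes with at least 4-fold separated groups and in 36 of all 41, and control library A was above control library B in 18 of those 26. By role, the ratio of library A to library B was 3.96 (3.44 to 4.56) for sperm chromatin, 3.97 (3.62 to 4.35) for the Cys-Gly-Pro family, 3.83 (3.68 to 4) for the aminopeptidases and 4.19 (3.84 to 4.59) for the other spermatid genes. The TAF homologs stood at 0.898 (0.778 to 1.04) and the aly group at 1.07 (0.934 to 1.22), so neither sum differed between the libraries beyond counting error. Among their single genes, can stood at 2.07 (1.13 to 3.96) and mia at 0.852 (0.733 to 0.99), in opposite directions. The intervals of the other regulators with reads in both libraries did not exclude equal levels. Among single genes of the 4 spermatid roles, the ratio ran from 2.56 for ProtB to 7.84 for djl. The gap between libraries A and B was thus of similar size in 4 roles, and in each of them the summed ratio over the controls was above 6 even without library A. These ratios without library A were 7.64 for sperm chromatin, 18.3 for the Cys-Gly-Pro family, 9.62 for the aminopeptidases and 6.58 for the other spermatid genes. Without library B they were 30.2, 72.6, 36.9 and 27.6 in the same order.

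**Figure D4:**
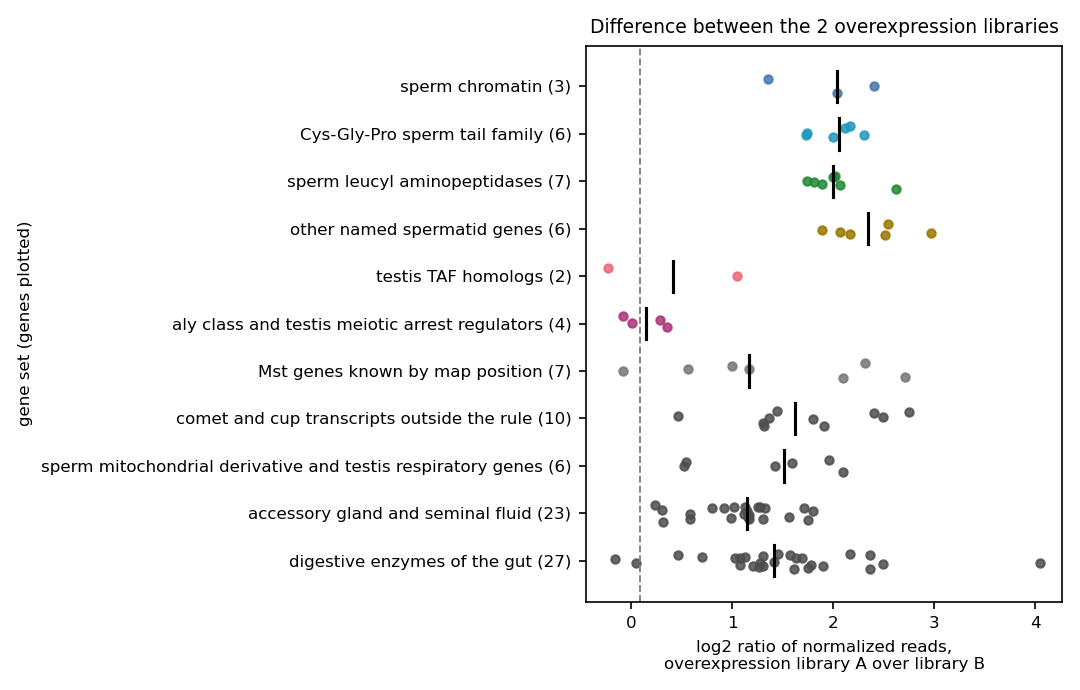
Log2 ratio of normalized reads between overexpression libraries A and B for each gene with at least 20 reads in them, by role and in 4 other gene lists, with the median as a black bar and the median of all genes as a dashed line. The genes of the 4 spermatid roles centre near 2, a ratio near 4, those of the meiotic arrest regulators lie nearer the dashed line, and the accessory gland and gut genes lie between.

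Other genes of sperm formation, which the symbol rule does not cover, were read for comparison, with calls again from the authors' deposited table. Of the 10414 genes with recovered reads, 1531 had no control read. Such a gene has reads only under overexpression, so the counts of genes without a control read below are descriptive. The shares over all genes, for the lists below, were 5.66% called higher, 31.7% with separated groups and 15.0% separated by at least 4-fold. A single call in a short list is little beside such a share. The comet and cup transcripts, which are made after meiosis and gather at the ends of spermatid tails, had 10 of 11 genes in which both overexpression libraries exceeded both controls, and 2 of 10 tested were called higher. schuy had 221 and 61 reads against 0 and 0 and hale 101 and 30 against 0 and 0, with adjusted p of 0.00284 and 0.0374 in the authors' deposited table. Neither had a read in a control. Genes of the sperm mitochondria had 6 of 6 so placed, with 1 of 6 called, and their summed ratio was 19.2 (16.2 to 22.9). It was 8.44 and 30.3 without overexpression libraries A and B in turn, and 51.5 and 9.89 without control libraries A and B. Most of that sum was loopin-1, named after its values were seen, with 2020 and 537 reads against 64 and 4 and no call by the authors' deposited table (adjusted p = 0.449). In that list knon, which is a mitochondrial ATP synthase subunit relative of the spermatid, had 174 and 60 reads against 3 and 9, and Cyt-c-d, a testis cytochrome c, had 144 and 35 against 8 and 4. The authors' deposited table called knon higher (adjusted p = 0.00485) and not Cyt-c-d (adjusted p = 0.0624). Tpl94D, a transition protein between histones and protamines, had 208 and 66 reads against 3 and 0 and was called higher (adjusted p = 0.00639 in the authors' deposited table). Prtl99C, another sperm chromatin protein, had 79 and 28 against 8 and 0, and the authors' deposited table did not call it (adjusted p = 0.339).

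Of the testis paralogs of proteasome subunits 1 of 9 tested was called, Rpt6R, with 77 and 46 reads against 2 and 5 (adjusted p = 0.0119 in the authors' deposited table). Prosbeta4R2 had 63 and 13 against 0 and 0 and was not called by the authors' deposited table (adjusted p = 0.173). Their summed ratio was 1.84 (1.67 to 2.04). The Y-linked fertility and testis genes had 151 and 27 reads over 11 genes under overexpression and 5 and 1 in the controls. This is a ratio of 24 (10.8 to 66.2). Of the 11, 9 had no control read, among them sparse genes such as Ppr-Y, with 1 and 0 reads under overexpression. The ratio was 7.15 and 41.4 without overexpression libraries A and B in turn, and 86.2 and 11.5 without control libraries A and B. Among them kl-5 and kl-3, dynein heavy chain genes of the sperm axoneme, had 50 and 5 and 21 and 8 reads, with 0 in both controls. The 1 gene of this list with an adjusted p, kl-5, was not called by the authors' deposited table (adjusted p = 0.34).

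Of the spermatocyte and meiotic regulators outside the rule, 0 of 6 tested were called, while in 7 of the 8 with recovered reads both overexpression values exceeded those of both controls, 2 of them by at least 4-fold. Their summed ratio was 2.22 (1.9 to 2.6), without bol, whose mean of 4096 was too high for recovery and which the authors' deposited table put at -0.20 (adjusted p = 0.587). In that list tbrd-2, a bromodomain gene of spermatocytes, had 44 and 20 reads against 4 and 0, and its relative tbrd-1 had 38 and 13 against 4 and 2. The authors' deposited table gave adjusted p-values of 0.328 for tbrd-2 and 0.338 for tbrd-1. Early germline genes had 0 of 4 called and a summed ratio of 1.16 (1.01 to 1.35). Within them bam had 18 and 8 reads against 0 and 0, and bgcn, its partner, 56 and 17 against 7 and 30. Of the somatic testis genes, tj had 457 and 423 reads against 328 and 427, or a ratio of 0.942 (0.854 to 1.04), and the authors' deposited table put eya at -0.26 (adjusted p = 0.105).

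Lists for other body parts were read in the same libraries. The accessory gland and seminal fluid list had 18 of 22 tested genes called higher in the authors' deposited table, with summed normalized reads of 5689 and 2833 under overexpression and 35.6 and 38.6 in the controls. In the controls 13 of its 24 genes with reads were at 0, among them Sfp87B (806 and 557 against 0 and 0) and Sfp60F (509 and 352 against 0 and 0). Of the 4 ejaculatory bulb and duct genes 2 were called. EbpII had 837 and 625 reads against 0 and 0, and the authors' deposited table put Ebp at 4.69 on the log2 scale (adjusted p = 4.81e-218). The authors' deposited table did not call the more abundant EbpIII (mean normalized count 73769, log2 0.05, adjusted p = 0.68) and Est-6 (18149, log2 0.11, adjusted p = 0.3). Of the digestive enzymes of the gut, 15 of 31 tested were called higher and 1 lower, and 15 of the 32 with recovered reads had no control read. Over those 32 genes the summed normalized reads were 10406 and 4138 against 854 and 966, and the 2 genes with the smallest p, Mal-A7 and Jon65Aiii, had 700 and 345 and 358 and 154 reads, with 0 in both controls. The sums leave out the 4 most abundant genes of the list, whose means were too high for recovery. The authors' deposited table put Amy-d at 0.00 (mean normalized count 13222), Amy-p at -0.19 (11240), Mal-B2 at -0.10 (10967) and Mal-A5 at -0.08 (4072), and called Amy-p lower (adjusted p = 0.0117). The Hox genes of the abdomen, abd-A and Abd-B, had 44 and 19 against 0 and 0, and 38 and 21 against 0 and 4, and Ubx 11 and 19 against 16 and 6, and 0 of the 3 genes of that list were called. Genes named here beyond those with the smallest p were chosen after their values were seen. The part of these tissues in the result was not tested.

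The ratio of overexpression library A to library B was 2.01 (1.92 to 2.1) over the accessory gland list, 1.39 (1.25 to 1.54) for EbpII and 2.51 (2.43 to 2.6) over the gut genes with recovered reads, against about 4 in the spermatid roles. Eggshell genes, which mark the ovary, had 0 of 5 tested called and a summed ratio of 0.776 (0.672 to 0.896), with Cp7Fc at 5 and 5 reads against 5 and 18 and Cp7Fa at 53 and 63 against 40 and 98. Both RNAs of male dosage compensation fell in the authors' deposited table, lncRNA:roX1 by 0.26 (adjusted p = 1.74e-06) and lncRNA:roX2 by 0.44 (adjusted p = 0.00236). Their direction was opposite to that of the spermatid genes, and what it says of male cells or of germ cells was not tested. Of 8 head and photoreceptor genes 3 were called lower, against 3.07% of all genes tested, while trp, norpA, nSyb, Syt1 and repo were not called. Among the 3 were trpl, a channel of the light response (-0.42, adjusted p = 2.19e-19), and ninaE, the main rhodopsin (-0.18, adjusted p = 2.74e-04), in the authors' deposited table. Their mean normalized counts, 154758 for trpl and 1176378 for ninaE, were the highest of the values given here.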

How the data were processed

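The labels' protocols describe poly-A RNA from pooled heads, with 2 samples in each group. The submitters' processing notes name STAR 2.5, HTSeq, DESeq2 1.22.1, DESeq and build BDGP6, without roles. In the sources used here the strand setting and annotation release were not given. The authors' deposited table has 1 row per gene. Its signal is the mean normalized count over the libraries, and the authors deposited with it a log2 fold change with its SE, a Wald score and a p-value with its adjusted p-value. A second deposited table, which could not be tied to these samples, was not used. Adjusted values matched a Benjamini-Hochberg adjustment to within 1.86e-06. Gene symbols matched for 17626 IDs, and coordinates are those of the BDGP6 annotation.

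Reads per library were solved from the deposited mean, as 4 whole numbers each divided by a size factor, and a solution was kept if it also gave the deposited fold change and SE to within 2e-06 and the next was at least 10 times worse. This resolved 99.7% of genes with means up to 30, 99.9% up to 100, 100% up to 300 and 98.4% up to 1000. With the mean shifted, 0 of 1500, 0 of 1375, 1 of 1371 and 9 of 300 genes were resolved. Each library's group followed from the sign of genes that had a single read. The recovered values are solved rather than counted, so count models were not run on them. Recovered reads were tested with limma 3.58.1 in R 4.3.3 (trend, pseudocount 1), after a check on simulated data, and intervals were computed with scipy 1.17.1 at 95%. For a group without a read, 3 reads summed over its libraries were taken as the floor. Precision follows the reads of each gene.

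Every gene with an adjusted p under 0.05 or at least 10 reads is named with values, and of each other list the 2 with the smallest p. The genes, lists and tests were chosen with earlier results of these data known. Alternatives covered thresholds, scaling, pseudocount, low-read filters, overlapping genes and leaving out each library.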

Additional observations from a re-analysis of the deposited data

How the results depend on the processing

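Of the authors' calls, 10 higher became 14 at an adjusted p under 0.1, 9 with adjustment over every gene with a p-value, 10 over genes with a mean of at least 5, and 7 without genes that share exon bases with another gene. limma on every gene with a read gave 6. That limma count was 5 with a pseudocount of 0.5, 23 over genes with at least 10 reads, 1 with voom weights, 0 with voom weights over genes with at least 10 reads and 17 with a robust variance prior. It ranged from 0 to 9 when 1 library was left out (0.00% to 12.7% of all genes), and over genes with at least 10 reads it was 3 and 5 without overexpression library A or B, and 16 and 2 without control library A or B. In those fits the lone library of a group is assumed to vary like the other group. At 0 members lower, no alternative differed, including limma. The cause of these changes was not tested, beyond the smaller number of samples or genes fitted. The voom, robust and latter leave-one-out fits, and those on the counts of separated genes, were chosen after seeing the data.

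The summed ratio of 6.43 ranged from 3.09 to 9.89 with 1 library left out, and was 7.95 without scaling, 6.03 without S-Lap1, 7.7 without overlapping genes and 5.09 for genes with a mean of at most 30. The median log2 fold change of 0.20 was 0.15 over all members and 3.85 on the read scale, which is not shrunken. The ratio of library A to B, 3.2, was 3.08 without scaling. The 30 genes with separated groups (31.7% of all genes) were 30 to 36 (41.1% to 48.2% of all genes), and the 26 at least 4-fold higher (15.0%) were 25 to 28 (11.9% to 19.1%). No paired analysis was possible because the recovered libraries carry no replicate number. Depth limits the genes with few reads: 8 had no control read, and 7 had no adjusted p, with means of at most 5.58.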
